A study of Rattus norvegicus with 6 samples.

Results

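Magnesium that passes the glomerular filter is recovered along the nephron, and its final urinary loss is set in the thick ascending limb and the distal convoluted tubule. Trpm6 and Trpm7 encode magnesium-permeable channels joined to a protein kinase domain. Cnnm2 and Cnnm3 encode membrane proteins of magnesium transport, and Slc41a1 a magnesium carrier. Umod encodes uromodulin, the most abundant protein of normal urine, which is made mainly in the thick ascending limb. Egf encodes the precursor of epidermal growth factor, made in the distal nephron, and its loss of function in humans is linked to renal magnesium wasting. These 7 genes were followed in rat kidney through all probe sets (groups of array probes for 1 transcript) that the platform annotation gives exactly 1 of these symbols. There were 9 such probe sets, out of 31042 on the array apart from controls. They covered 6 of the 7 genes, because no probe set carried the symbol Trpm6, and its level was not analysed here. Trpm7, Cnnm3 and Slc41a1 had 2 probe sets each and Cnnm2, Umod and Egf 1 each, and the probe set of highest mean over the 6 arrays was taken as the main one of its gene.

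The 6 arrays were hybridised with whole kidney RNA of adult male rats. The congenic group held 3 S.LEW(D1MCO4x1x3Bx1) rats, whose chromosome 1 carries a Lewis segment in an otherwise S genome. The other group held 3 inbred Dahl salt-sensitive (SS/Jr, here S) rats, the hypertension-prone parental strain. The series title ties the congenic rat to the mapping of Adamts16 variants, and the sources used here give neither the borders of the segment nor the diet or exact age. Each array carries its own animal number, so the spread behind the p-values is between rats. Those of limma, used below, also borrow spread from other probe sets of like signal (10.7 prior degrees of freedom). In the GRCr8 gene table Umod, Trpm6 and Cnnm2 lie on chromosome 1 with Adamts16, but 1808, 2582 and 2846 protein-coding genes away from it. The other members lie on chromosomes 3 (Trpm7), 2 (Egf), 9 (Cnnm3) and 13 (Slc41a1).

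The arrays had been scaled to a common level, and their median signals lay between 162 and 178. Values below a signal of 12.3 were raised to it before log2 was taken. Of the 9 probe sets, 8 passed the filter on low signals, a mean log2 signal above the median of all probe sets, and the second Slc41a1 probe set did not. Tested with limma over 15521 probe sets, congenic minus S, 0 passed an adjusted p of 0.05, a share of 0%, and none of the 9 did. At unadjusted p below 0.05 stood 2 of the 8 members that passed the filter, where 10.3% of all tested probe sets did. The congenic and S values did not overlap for 3 of the 8, against 16% of all tested probe sets. Shares over so few members cannot be set apart from that background, and the median log2 difference of the 8 was 0.03, against -0.01 over all tested.

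The promoter regions of the members differ in kind, and 2 are shown, that of Trpm7 because the results turn on this widely expressed gene, and that of Egf as a contrast from a gene of few kidney segments. Each run is the 250 bases before the annotated gene start, 5′ to 3′, from RefSeq (GRCr8), with every CG dinucleotide in capitals. The Trpm7 run lies at chr3:134588114-134588363 on the minus strand and the Egf run at chr2:220976298-220976547, also on the minus strand.
Trpm7: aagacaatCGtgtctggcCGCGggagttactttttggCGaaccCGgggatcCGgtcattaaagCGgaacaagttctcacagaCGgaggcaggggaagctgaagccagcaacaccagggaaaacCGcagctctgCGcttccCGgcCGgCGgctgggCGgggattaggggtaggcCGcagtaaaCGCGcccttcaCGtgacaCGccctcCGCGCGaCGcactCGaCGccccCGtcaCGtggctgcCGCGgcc
Egf: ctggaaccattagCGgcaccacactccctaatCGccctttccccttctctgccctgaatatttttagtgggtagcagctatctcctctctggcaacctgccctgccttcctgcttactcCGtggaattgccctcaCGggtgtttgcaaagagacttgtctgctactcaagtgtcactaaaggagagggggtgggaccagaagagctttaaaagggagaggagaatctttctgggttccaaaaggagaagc
The Trpm7 run held 29 CG dinucleotides and was 65.2% G or C, and the Egf run held 4 and was 51.6% G or C. The medians of all 33469 promoters in the table were 5 and 51.2%. Cnnm3 and Cnnm2 held 30 and 15 CG dinucleotides, so that they sat with Trpm7 above the median, while Umod held 3. The E-box CACGTG, which reads the same on both strands, was found in 5.59% of all promoters. Among the 6 members with a promoter in the table it occurred in Trpm7 alone, in 2 copies that begin 59 and 18 bases before the gene start. The letters CCAAT, read on both strands, were present in 34.0% of promoters and in Cnnm2 and Cnnm3 with 2 copies each, and in 1 of the Trpm6 windows. The letters TATAAA, on both strands, were present in 12.9% and among the members in Umod alone, whose window lies inside the annotated span of the gene. These are matches of letters and not sites of binding.

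Trpm7 showed the lowest p of the set, but in 1 of its 2 probe sets. Its product is a ubiquitous channel for magnesium, calcium and zinc with a kinase at its end. The main probe set, 1398355_at, read 847, 905 and 758 in congenic replicates 1 to 3, against 1057, 1545 and 1358 in S replicates 1 to 3. Every congenic kidney lay below every S kidney, and S replicate 1 was the S rat nearest to the congenic values. The means were 837 ± 73.7 in congenic kidneys and 1320.3 ± 246 in S kidneys (SD, n = 3 each). On the log2 scale the difference was -0.64 ± 0.13 (standard error; 95% interval -0.93 to -0.36), a signal 1.56-fold lower in congenic kidneys. In limma the unadjusted p was 2.43e-04, the 26th smallest of all probe sets tested, and the adjusted p was 0.134, so that it did not pass. With limma run without the variance trend, the unadjusted p was 0.00327 and the adjusted p 0.482. The 2-sided exact permutation test gave p = 0.1, the smallest that 3 against 3 allows. Without S replicate 1 the log2 difference was -0.80 with adjusted p = 0.0344, the only alternative under which it passed, and over all alternatives the adjusted p ran up to 0.52. In whole kidney RNA, fewer cells of a type and less RNA per cell cannot be told apart.

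**Figure D1:**
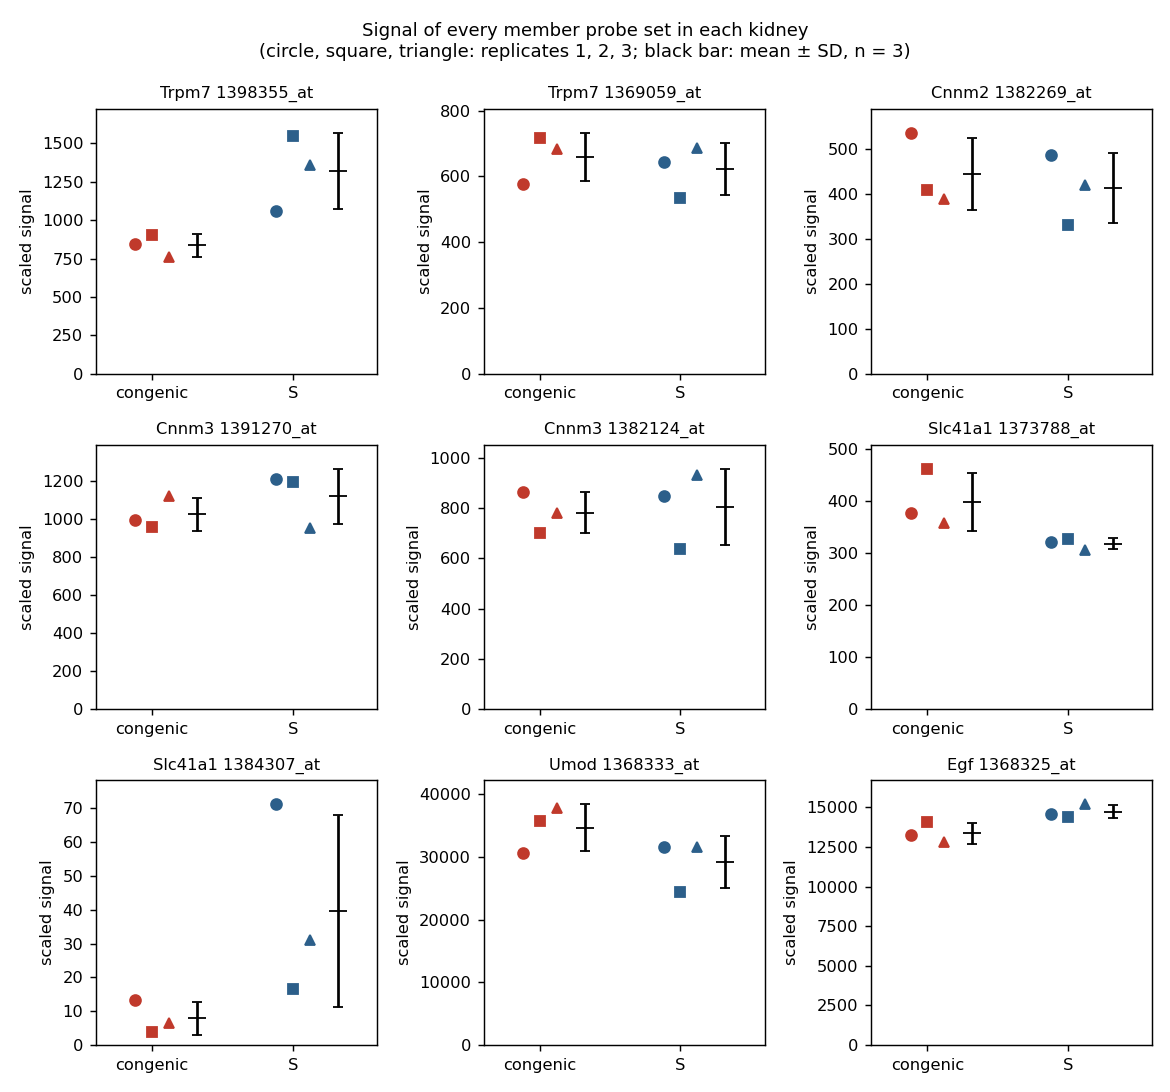
Scaled signal (linear axis from 0) of each of the 9 probe sets in every kidney, congenic left and S right in each panel, with mean ± SD (n = 3) as black bars. The 3 congenic kidneys lie below the 3 S kidneys for Trpm7 1398355_at and Egf and above them for Slc41a1 1373788_at, while the strains overlap for Umod. They also lie below for Slc41a1 1384307_at, where 2 congenic values were under the floor.

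The second Trpm7 probe set, 1369059_at, read 578, 715 and 684 in congenic kidneys and 644, 535 and 688 in S kidneys. The strains overlapped throughout, with means of 659 ± 72.0 in congenic and 622 ± 78.6 in S kidneys. The log2 difference was 0.09 with a 95% interval of -0.21 to 0.38 (limma, adjusted p = 0.862), and its sign turned, to -0.0199, without S replicate 2. This interval does not reach the -0.64 of the main probe set.

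Whether the 2 Trpm7 probe sets agreed was asked within each array, which removes differences of array level. The log2 ratio of 1398355_at over 1369059_at was 0.55, 0.34 and 0.15 in congenic replicates 1 to 3 and 0.71, 1.53 and 0.98 in S replicates 1 to 3. The congenic ratios all lay below the S ratios, and the spread was wider among S rats. The mean ratio was 0.35 ± 0.20 in congenic and 1.08 ± 0.42 in S kidneys, a difference of -0.73 (exact permutation p = 0.1, the smallest possible, and 0.15 adjusted over 3 such pairs). With 1 array left out the difference ran from -0.91 to -0.50. Over the 6 arrays the signals of both probe sets had a Pearson r of -0.43 (exact permutation p = 0.361) and a Spearman rho of -0.26 (exact permutation p = 0.658), with adjusted values over 3 pairs of 0.453 and 0.658. Without S replicates 2 and 3, the arrays farthest from the median of the main probe set, Pearson's r was -0.06. The probe sets ranked the 6 kidneys differently. Averaged over both probe sets, Trpm7 had a log2 difference of -0.28 (limma, adjusted p = 0.395). Which part of the transcript each probe set reads was not examined.

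**Figure D2:**
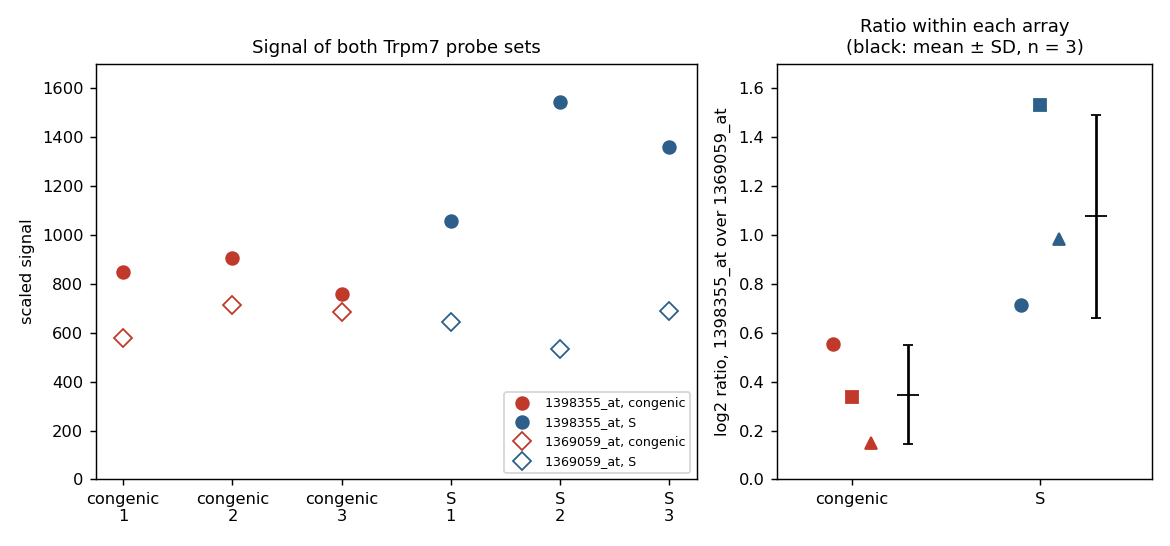
Left, scaled signal of the Trpm7 probe sets 1398355_at (filled circles) and 1369059_at (open diamonds) in each kidney; right, their log2 ratio within each array with mean ± SD (n = 3). The filled circles are lower in the congenic kidneys, the open diamonds overlap between strains, and the ratio averages 0.35 in congenic and 1.08 in S kidneys.

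The CNNM genes showed no difference that was detectable at this precision. Cnnm2, which is mutated in dominant human hypomagnesaemia and whose protein sits in the basolateral membrane of distal tubule cells, read 536, 410 and 390 in congenic kidneys and 487, 331 and 421 in S kidneys. The strains overlapped, and replicate 1 was the highest rat in either strain. The log2 difference was 0.11 with a 95% interval of -0.27 to 0.49 (limma, adjusted p = 0.859). It turned to -0.0393 without S replicate 2 and to -0.0305 without congenic replicate 1, so it has no settled sign.

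Cnnm3, a relative of Cnnm2, read 995, 956 and 1121 in congenic kidneys and 1209, 1194 and 952 in S kidneys with its main probe set, 1391270_at. The strains overlapped through S replicate 3, which held the lowest value of the 6. The log2 difference was -0.12 with a 95% interval of -0.37 to 0.13 (limma, adjusted p = 0.751). Its second probe set, 1382124_at, read 861, 700 and 781 in congenic kidneys and 847, 637 and 929 in S kidneys, a log2 difference of -0.03 (limma, adjusted p = 0.959). The sign of this small value became positive, at 0.0399, when arrays were centred on their medians. S replicate 3 was thus the lowest kidney by 1 Cnnm3 probe set and the highest by the other. The log2 ratio of the 2 probe sets averaged 0.39 ± 0.16 in congenic and 0.48 ± 0.44 in S kidneys (exact permutation p = 0.9), so that, unlike for Trpm7, it overlapped between strains.

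Slc41a1, whose protein exchanges sodium for magnesium in human cells, read 378, 463 and 358 in congenic kidneys against 321, 327 and 307 in S kidneys with its main probe set, 1373788_at. All 3 congenic values lay above all 3 S values, and congenic replicate 2 was the highest. The means were 399 ± 55.6 in congenic and 318 ± 10.4 in S kidneys. Their log2 difference of 0.32 ± 0.16 (standard error; 95% interval -0.03 to 0.67) did not pass (limma, unadjusted p = 0.0688, adjusted p = 0.515; exact permutation p = 0.1).

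The second Slc41a1 probe set, 1384307_at, read 13.3, 3.76 and 6.46 in congenic kidneys and 71.2, 16.5 and 31.1 in S kidneys, all far below the array medians. Of the congenic values 2 lay under the floor of 12.3, so that no fold is given. Every congenic value lay below every S value, the opposite order to the main probe set, but at a level where these arrays were not shown to read above background. The log2 ratio of the 2 Slc41a1 probe sets, like that of Trpm7, did not overlap between strains (exact permutation p = 0.1, and 0.15 adjusted over 3 pairs). That ratio rests on the floor in 2 congenic kidneys, so its size is not given.

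**Figure D3:**
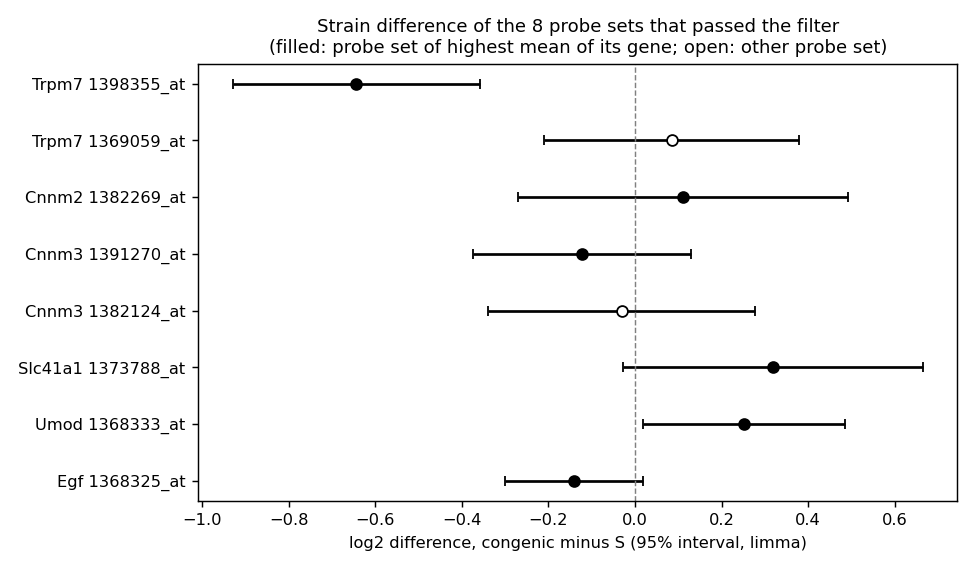
Log2 difference, congenic minus S, with 95% limma interval for the 8 probe sets that passed the filter; filled points are the main probe set of each gene and open points the other. Trpm7 1398355_at lies at -0.64 while Trpm7 1369059_at lies at 0.09.

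Umod signals were higher on average in congenic kidneys, within overlapping ranges. Umod read 30573, 35789 and 37749 in congenic replicates 1 to 3 and 31662, 24420 and 31653 in S replicates 1 to 3. Congenic replicate 1 fell below S replicates 1 and 3, and S replicate 2 was the lowest of the 6. The means were 34704 ± 3709 in congenic and 29245 ± 4179 in S kidneys. This gave a log2 difference of 0.25 ± 0.11 (standard error; 95% interval 0.02 to 0.48; limma, unadjusted p = 0.0359, adjusted p = 0.453; exact permutation p = 0.3). Without S replicate 2 it was 0.13, and under all alternatives it stayed positive with adjusted p between 0.221 and 0.744. Its unadjusted p lay below 0.05 in 8 of the 15 alternatives and reached 0.22.

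Egf signals were slightly lower in each congenic kidney. Egf read 13254, 14083 and 12788 in congenic kidneys against 14609, 14415 and 15196 in S kidneys. The strains did not overlap, with a gap between congenic replicate 2 and S replicate 2 that was small beside the signals. The means were 13375 ± 656 in congenic and 14740 ± 407 in S kidneys, a coefficient of variation of 4.9% in congenic and 2.76% in S kidneys that was the lowest of the 9 probe sets in either strain. The resulting log2 difference of -0.14 ± 0.07 (standard error; 95% interval -0.30 to 0.02) did not pass (limma, unadjusted p = 0.0795, adjusted p = 0.533; exact permutation p = 0.1). Its size depended on the scaling, at -0.07 with arrays centred on their medians (limma, unadjusted p = 0.417), -0.20 after quantile normalisation (0.00412) and -0.22 with cyclic loess (0.00619), and in no alternative was the adjusted p below 0.276. Umod and Egf thus had opposite signs.

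The other genes of magnesium transport and its regulation gave no common direction. Of 22 listed genes 17 had a probe set and 14 were tested, each by its probe set of highest mean. Among these 9 were higher and 5 lower in congenic kidneys, with a median log2 difference of 0.06, against 0.01 over all 9334 tested genes. Unadjusted p lay below 0.05 for 1 higher and 1 lower gene, where 10.4% of all tested genes reached that level, and none passed the adjusted threshold. Mmgt1, a membrane magnesium transporter gene, read 1553 ± 195 in congenic and 1266 ± 192 in S kidneys, a log2 difference of 0.30 (limma, adjusted p = 0.421). The second Mmgt1 probe set had the opposite sign, at -0.16. Tusc3, an oligosaccharyltransferase subunit gene also linked to magnesium uptake, read 1507 ± 191 in congenic and 1771 ± 62.3 in S kidneys, a log2 difference of -0.24 (limma, adjusted p = 0.452). The paralogue Cnnm4 had a log2 difference of 0.37 and the mitochondrial magnesium channel gene Mrs2 -0.29, neither at p below 0.05.

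The segments that make uromodulin and recover magnesium were read through lists of marker genes, whose restriction to 1 segment was not tested here. Of 8 tested thick ascending limb markers 7 were lower and 1 higher in congenic kidneys, where 52.4% of all tested genes were higher. Of these, 2, Slc12a1 and Cldn10, were lower at unadjusted p below 0.05, where 4.84% of all tested genes were. The median log2 difference was -0.09 (-0.02 with arrays centred on their medians). Slc12a1, the loop diuretic target, read 7045, 7403 and 6093 in congenic kidneys and 7074, 9056 and 8523 in S kidneys, so that congenic replicate 2 overlapped S replicate 1. Cldn10, a claudin gene of paracellular ion passage, read 5793, 5834 and 5289 in congenic against 6646, 6448 and 6660 in S kidneys without overlap. Its log2 difference was -0.22 (limma, unadjusted p = 0.00974, adjusted p = 0.321). The paracellular magnesium pore genes Cldn16 and Cldn19 had -0.02 and -0.07, the first positive, at up to 0.05, under all 3 other scalings. The summed signal of the 8 markers was 19320 to 21520 in congenic and 21969 to 24509 in S kidneys, without overlap. Sums were taken on the deposited scaling alone, so whether this gap holds under other scalings was not tested. Without Slc12a1 and Cldn10 the other 6 summed to 7938 to 8435 in congenic and 8249 to 9326 in S kidneys, which overlapped. Casr, the calcium-sensing receptor gene, was the 1 marker higher in congenic kidneys, with a log2 difference of 0.12 (limma, adjusted p = 0.724). Umod, made in the same segment, had the sign of Casr and the opposite sign to the other 7, and the part of segment share in its value was not tested.

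Distal convoluted tubule markers stood 6 higher and 3 lower among 9 tested, 2 of them higher at unadjusted p below 0.05, where 5.55% of all tested genes were, with a median of 0.06 that was -0.00882 after quantile normalisation. Their summed signals overlapped, at 56249 to 63428 in congenic and 54277 to 59620 in S kidneys. Fxyd2 and Calb1 had the largest signals among them. Slc12a3, the thiazide-sensitive cotransporter gene that defines the segment, read 2256 ± 155 in congenic and 2528 ± 441 in S kidneys. Its log2 difference was -0.15 (limma, adjusted p = 0.661), the opposite sign to the list median. Kcnj16, a basolateral potassium channel gene, read 8616 ± 137 in congenic and 7525 ± 193 in S kidneys, a log2 difference of 0.20 (limma, adjusted p = 0.377). Atp2b1, a plasma membrane calcium pump gene, had 0.27 (limma, adjusted p = 0.416). The other tested probe sets of Kcnj16 and Atp2b1 had smaller differences, at 0.07 and 0.02. Pvalb and Kcna1, further defining genes, averaged 12.7 and 6.25 in congenic and 23.3 and 11.9 in S kidneys, near or under the floor, so the array did not resolve them. Kcnj10 and Trpv5, listed but also under the filter, averaged 133 and 87.6 in congenic and 162 and 134 in S kidneys. Both were lower on average in congenic kidneys, with overlapping strains, and are not in the counts above.

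Egf acts through its receptor, and the list of EGF receptors, ligands and cleaving proteases held 4 higher and 5 lower genes of 9 tested, with a median of -0.11. That median became 0.07 without congenic replicate 2. Egfr, the receptor of EGF, read 273 ± 55.4 in congenic and 325 ± 47.2 in S kidneys, a log2 difference of -0.27 (limma, adjusted p = 0.666). Errfi1, a feedback inhibitor of that receptor, was the 1 listed gene at unadjusted p below 0.05, where 10.4% of all tested genes were. It read 7691 ± 1342 in congenic and 6419 ± 351 in S kidneys (limma, adjusted p = 0.462). Congenic replicate 2, at 6175, lay below all S values, so the strains overlapped. Hpn, the protease hepsin that releases uromodulin from the cell surface, read 3675 ± 239 in congenic and 3425 ± 170 in S kidneys, a log2 difference of 0.10 (limma, adjusted p = 0.695).

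**Figure D4:**
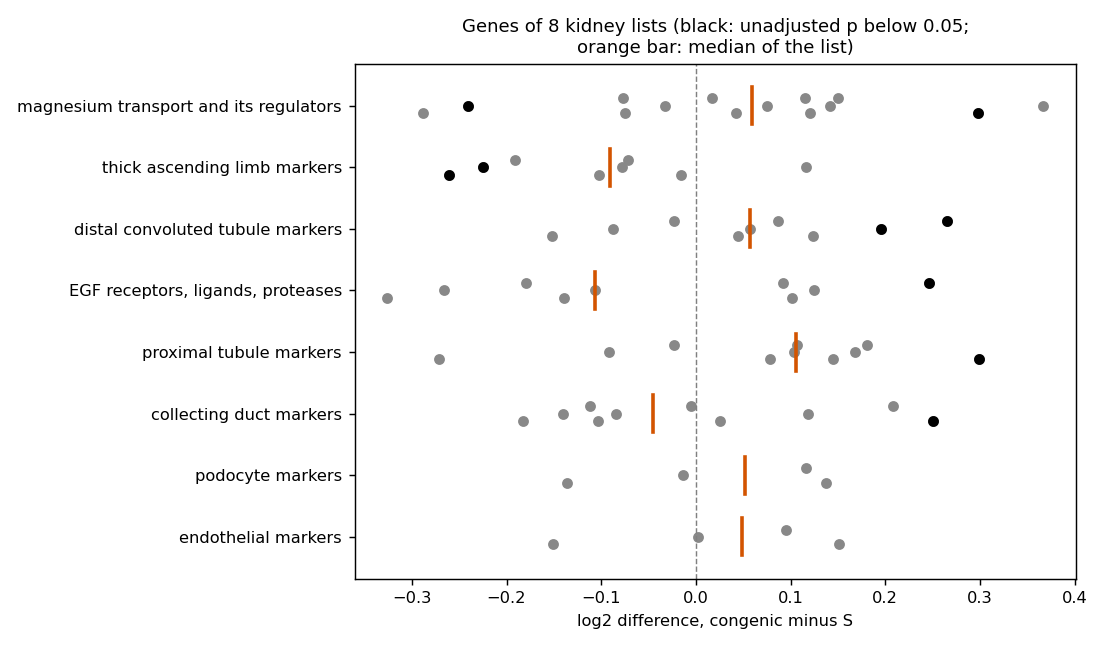
Log2 difference, congenic minus S, of the tested genes of 8 lists, with list medians as orange bars and genes at unadjusted p below 0.05 in black. Thick ascending limb markers have a median of -0.09 and proximal tubule markers 0.11, values that moved with the scaling of the arrays, and no gene passed the adjusted threshold.

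Markers of the other kidney cell types were present. Of 10 proximal tubule markers 7 were higher, with a median of 0.11 that ran from 0.03 with cyclic loess to 0.18 with arrays centred on their medians. Slc13a1, a sulphate transporter gene, had 0.30, but -0.19 in its second probe set. The summed signals of the 10 markers overlapped, at 118074 to 124331 in congenic and 108016 to 118614 in S kidneys. Of 10 collecting duct markers 4 were higher and 6 lower, with a median of -0.05 that was 0.03 with arrays centred on their medians, and Hsd11b2, which inactivates glucocorticoids, had 0.25. Podocyte and endothelial markers, 4 tested in each list, had medians of 0.05 each and 0 genes at unadjusted p below 0.05. The part of these cell types in the members' values was not tested.

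Over the 6 arrays the tested gene whose log2 signal was most like the main Trpm7 probe set was Tmed8, with a Pearson r of 0.999. For Umod it was Tmem39a (0.998), for Egf Wrn (0.996), for Cnnm3 Aebp2 (0.991), for Slc41a1 Mrpl21 (0.989) and for Cnnm2 Ddx27 (0.985). Of all 12421 named probe sets tested the median best r was 0.992. A best r at least as high as that of the member was found for 1.69% of them in the case of Trpm7, 4.81% for Umod, 12.9% for Egf, 58.6% for Cnnm3, 69.1% for Slc41a1 and 87.2% for Cnnm2.

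**Figure D5:**
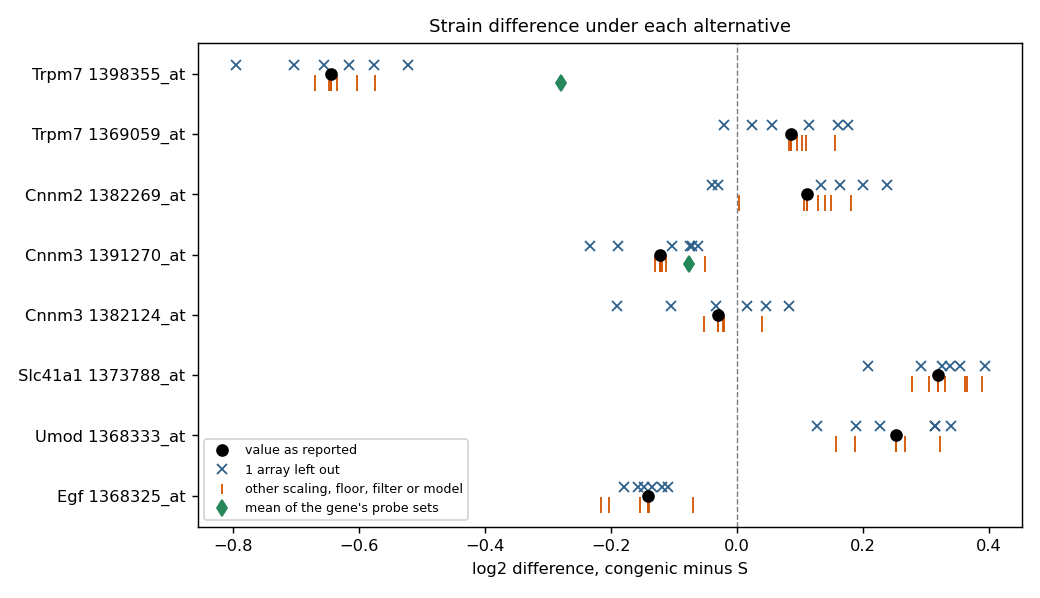
Log2 difference, congenic minus S, of the 8 probe sets that passed the filter as reported (black), with 1 array left out (blue crosses), under another scaling, floor, filter or model (orange ticks) and averaged over the gene's probe sets for Trpm7 and Cnnm3 (green). Trpm7 1398355_at, Cnnm3 1391270_at, Slc41a1 1373788_at, Umod and Egf keep their sign at every point drawn, and Egf spans -0.22 to -0.07.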

How the data were processed

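Kidney RNA (TRIzol, then RNeasy columns, per the labels' protocols) of 3 congenic and 3 S rats was hybridised as biotinylated cRNA to 6 Affymetrix arrays. The deposited values are linear signal intensities per probe set, for which the submitters' processing notes name GCOS 1.4. The sources used here give no settings, detection calls or build. The mean of each array, trimmed by 2% at either end, was 500.2, so the authors had scaled the arrays before deposit. No further scaling was applied. From 31099 probe sets 57 controls were removed. Signals were floored at 12.3 (10th percentile), and log2 was taken. Probe sets above the median mean log2 signal (15521) were fitted with limma 3.58.1 in R 4.3.3 (lmFit, eBayes with trend, Benjamini-Hochberg). The median standard error was 0.14. For a member below the filter, a fit without the filter was used. Exactly 1 symbol was found for 20826 probe sets, updated through Entrez identifiers to GRCr8 names. Named list genes were fixed ones (Slc12a1, Slc12a3, Egfr, Hpn and a gene not reported here) plus, from each list, up to 4 of smallest p below 0.05. Genes named beyond that rule (Cnnm4, Mrs2, Cldn16, Cldn19, Casr, Pvalb, Kcna1, Kcnj10, Trpv5) were chosen after their values were seen. The members and lists were chosen with earlier results of these data known. The fit was also run on simulated data with independent noise and no array effects, which does not bear on how far results depend on single arrays. Alternatives covered floor, pseudocount (16), scaling, filter, variance trend, array weights, a block for title number, probe set averaging and each array left out. Precision is limited by the number of arrays.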

Additional observations from a re-analysis of the deposited data

How the results depend on the processing

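No paired analysis was possible because the strains share no replicate numbers in the labels. The count of probe sets at adjusted p 0.05, which was 0 (1602 at unadjusted p below 0.05), was 9 with arrays centred on the median and 0 to 41 with 1 array left out. The highest count came without S replicate 1, and leaving out congenic replicate 1 gave 6 and congenic replicate 3 gave 3. The cause of these counts was not tested. In the block for title number, S replicate 1 stood with congenic replicates 1 and 2, apart from the other arrays. With 1 array left out, the log2 difference ran from -0.80 to -0.52 for Trpm7 1398355_at, which passed without S replicate 1. It ran from -0.0199 to 0.18 for Trpm7 1369059_at, from -0.0393 to 0.24 for Cnnm2, from -0.23 to -0.06 for Cnnm3 1391270_at and from -0.19 to 0.0824 for Cnnm3 1382124_at, which was 0.0399 with median centring. It ran from 0.21 to 0.39 for Slc41a1 1373788_at, which was -0.54 when averaged with 1384307_at, a value set by the floor and no estimate for the gene, from 0.13 to 0.34 for Umod and from -0.18 to -0.11 for Egf. Slc41a1 1384307_at gets no difference, since congenic values lay under the floor. The member differences were otherwise on the reported side of zero and of the adjusted threshold under the other alternatives, the block for title number included. Unadjusted p moved across 0.05. For Umod it was 0.0609 with that block, 0.092 with cyclic loess, 0.117 without variance trend and 0.147 without the filter. It was 0.00412 for Egf and 0.0413 for Slc41a1 1373788_at after quantile normalisation. Egf ran from -0.22 with cyclic loess to -0.07 with median centring. Among the lists, the thick ascending limb median was -0.04 and the magnesium transport median 0.11 without S replicate 3, and the proximal tubule median 0.04 after quantile normalisation, 0.03 with cyclic loess and 0.18 with median centring, which also gave 0.13 for magnesium transport. The distal convoluted tubule median turned to -0.00882 after quantile normalisation. The collecting duct median had no settled sign, at -0.11 without congenic replicate 1 and 0.02 without congenic replicate 2. It was 0.00127 without S replicate 3, 0.00474 without congenic replicate 3 and 0.03 with median centring. Median centring and cyclic loess were tried on the lists after seeing the data. No detection calls tell weak signal from background, which bears on Slc41a1 1384307_at alone among the members.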

Other observations

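Probe sets of 1 gene that differ in sign were found among the listed genes. Mmgt1 had log2 differences of 0.30 and -0.16, and Slc13a1 had 0.30 and -0.19. With the same sign, Atp2b1 had 0.27 and 0.02 in its tested probe sets, Kcnj16 had 0.20 and 0.07, and Egfr had -0.27 and -0.31. The named probe set was always the one of highest mean.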
